A study of Mus musculus with 12 samples.

Results

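Renal cortex of nephrotic ICGN mice was compared between 4 and 8 weeks of age. The comparison rests on 6 of the 12 arrays of the series, namely every array titled as ICGN cortex, with 3 arrays at each age. The ICGN strain (ICR-derived glomerulonephritis) has a hereditary nephrotic syndrome, and it is known to carry a mutation of Tns2, the gene of tensin 2, a protein of podocyte focal adhesions. All 6 ICGN samples are labelled with nephrotic syndrome, so the 4-week group is a young group of the affected strain and not a healthy control. The other 6 arrays, 3 at each of the same ages, come from ICR mice, labelled normal, which served as the reference for what the same interval brings in unaffected cortex. No treatment, sex, urinary protein or histology is given for any sample, so the stage of disease of an individual mouse is unknown here. The sample descriptions speak of 1 mouse per array and number the replicates, whereas the source names speak of mice in the plural, so the p-values reflect how far these samples vary, which may be technical.

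The glomerular filter of the kidney is built of fenestrated endothelium, a shared basement membrane and the foot processes of podocytes. When it leaks, plasma proteins reach the proximal tubule, which takes them up through megalin and cubilin, and tubules exposed in this way are known to express injury proteins and to attract macrophages. The weeks after weaning are also a time of normal maturation: cell division subsides, matrix genes are turned down, immunoglobulin-secreting cells appear, and in male mice androgen switches on a set of cytochromes, transporters and conjugating enzymes of the proximal tubule.

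Total RNA was hybridised to Affymetrix Mouse Genome 430 2.0 arrays. Values are given as normalised signals, that is signals scaled to one median of 40.4 over all probe sets and then centred on the tested genes, and the 3 values of a group are listed in the order of replicates 1, 2 and 3. As deposited, the ICGN arrays had a median signal of 18.5 to 19.03 at 4 weeks and of 87.0 to 108 at 8 weeks, so the scaling target differed with age. Whether the arrays of the 2 ages were also hybridised or scanned apart is not known here. Age and any such difference in processing cannot be told apart within a strain. A processing effect that is a constant on the log scale and equal in both strains cancels in the difference between their changes. Arrays of one ICGN group correlated at 0.981 to 0.989 at 4 weeks and at 0.983 to 0.986 at 8 weeks (Pearson's r across genes, which are not independent replicates). The ratio of the 3' to the 5' probe set of Actb, a measure of RNA integrity, was 1.40 ± 0.077 (SD, n = 3) at 4 weeks and 1.61 ± 0.038 at 8 weeks in ICGN (two-sided p = 0.1 by an exact permutation test, which cannot go lower with 3 arrays in each group). In ICR the Actb ratio was 1.45, 1.36 and 1.36 at 4 weeks and 2.10, 1.70 and 2.02 at 8 weeks. This shift with age was thus not equal in the strains and need not cancel in their difference. For Gapdh the ratios in ICGN were 0.814 ± 0.0032 and 0.794 ± 0.0028 (exact permutation p = 0.1), and the 18S control signal was 269 ± 21.7 and 318 ± 210 (exact permutation p = 1), the 8-week value resting on replicate 2 at 556. In ICR the 18S signals were 378, 400 and 413 at 4 weeks and 180, 159 and 282 at 8 weeks. The part of these shifts in the results, the strain differences included, was not tested.

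Defining markers of cortex stood above the array median in all 6 ICGN arrays: Slc34a1, Lrp2, Cubn and Slc5a2 of the proximal tubule, Umod and Slc12a1 of the thick limb, Slc12a3 of the distal convoluted tubule, Aqp2 of the collecting duct, Nphs1 and Podxl of podocytes and Kdr of endothelium. Genes that mark tissues a cortical slice can carry along were followed too. None of 10 adipocyte genes was called, and their summed signal ranged from 10868 to 12155 at 4 weeks and from 9310 to 16049 at 8 weeks. Their median signal varied within each age, at 237, 116 and 33.0 and then at 88.0, 247 and 115. The lack of calls therefore does not show an even share of fat. Of 4 adrenal genes 1 was called, the steroid hydroxylase Cyp21a1, at signals of 29.5, 32.5 and 29.8 against 67.3, 53.6 and 54.9 (log2 change 0.74 ± 0.25 SE, adjusted p = 0.0477), a call lost when any 1 ICGN array was left out (0.65 to 0.79). Of 11 inner medullary genes 1 was called, Mal, and the list's summed signal ranged from 4753 to 7187 and from 6219 to 7225. The part of these tissues in the results was not tested. Tns2 itself lay at 95.6, 72.8 and 64.7 at 4 weeks and at 131, 63.7 and 46.2 at 8 weeks, overlapping between the ages (log2 change -0.05 ± 0.25 SE, adjusted p = 0.906), against means of 330 and 308 in ICR.

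Of 12385 genes tested, 1374 were higher at 8 weeks than at 4 weeks in ICGN cortex (11.1%) and 1438 were lower (11.6%), at an adjusted p of 0.05 or less in a limma model of all 12 arrays. At least a doubling was reached by 247 of the former and at least a halving by 160 of the latter. The median change over all tested genes was -0.0045 on the log2 scale. The balance of higher and lower calls depends on the scaling, with 787 higher and 1584 lower when arrays were set to a common median without centring. Without 8-week replicate 3 the higher calls numbered 891, and without 4-week replicate 2 the lower calls numbered 937. Every adjusted p below comes from limma with Benjamini-Hochberg adjustment over all tested genes, every change is log2(signal + 11) at 8 weeks minus that at 4 weeks with its standard error, and a gene is said to rise or fall only where its adjusted p was 0.05 or less. Separation of the ages was a condition for naming the genes of largest change in ICGN, and a small p favours it in the others. It is therefore no separate support, and its share over all tested genes is not given here. Sample tissue is a mixture, so fewer cells of a type and less RNA per cell cannot be told apart.

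Over the same interval ICR cortex had 2310 higher and 1780 lower genes (18.7% and 14.4%). This balance too moved with scaling, to 1543 higher and 2536 lower at a common trimmed mean and to 1720 and 2088 after quantile normalization. The 2 comparisons share no array. Of the genes that rose in ICGN, 678 (49.3%) also rose in ICR, 641 were not called there and 55 fell. Of those that fell in ICGN, 716 (49.8%) also fell in ICR, 685 were not called and 37 rose. The change itself differed between the strains for 1159 genes (9.36%), 531 with the more positive change in ICGN (4.29%) and 628 with the more negative change (5.07%), including all 55 and all 37 genes that moved in opposite directions. Scaling to a common median without centring gave 274 and 704, and a common trimmed mean 646 and 461. The count of 531 was 343 without ICGN 4-week replicate 2, 345 without ICGN 4-week replicate 3, 353 without ICR 4-week replicate 2, 350 without ICGN 8-week replicate 1 and 277 without ICGN 8-week replicate 3. The count of 628 was 342, 364, 382, 373 and 323 without the same arrays, 404 without ICR 4-week replicate 3 and 385 without ICR 8-week replicate 3.

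**Figure D1:**
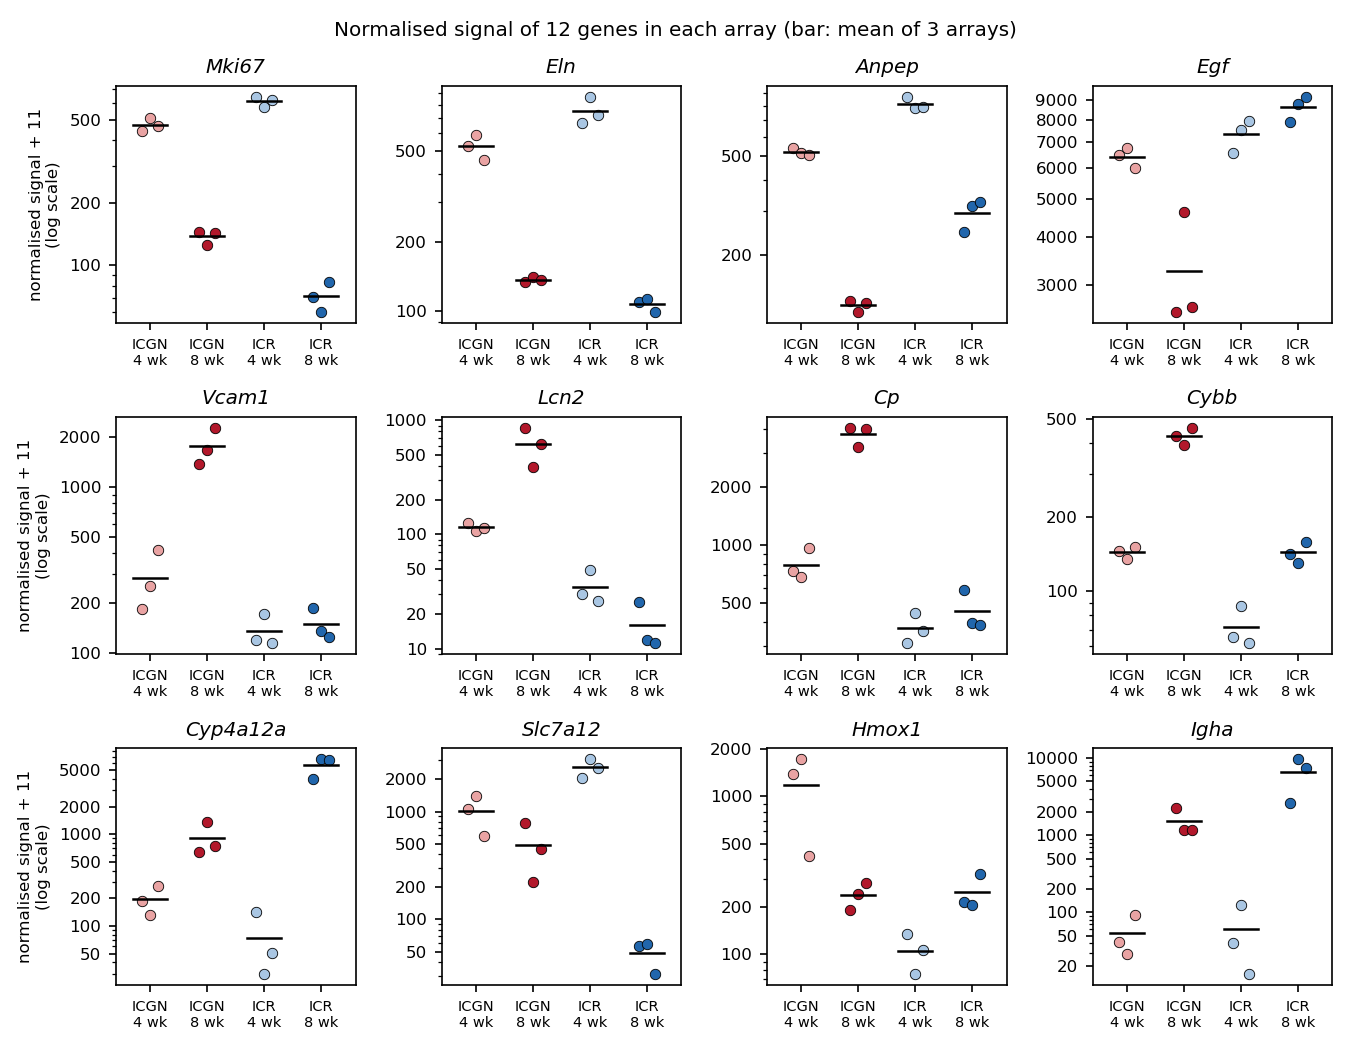
Normalised signal plus 11, on a logarithmic axis, of 12 genes in each of the 12 arrays, with 1 point per array and a bar at the mean of the 3 arrays of each strain and age. Mki67, Eln and Anpep are lower at 8 weeks in both strains, Vcam1, Lcn2 and Cp are highest in the 8-week ICGN arrays, and Hmox1 is high in 4-week ICGN arrays 1 and 2 (1367 and 1715).

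The gene lists were chosen with earlier results of these data known, so their counts describe the lists and are no independent test. The shares to set beside them are those of all tested genes. These were 11.1% higher and 11.6% lower in ICGN, and 18.7% and 14.4% in ICR. Most genes of cell division fell. Of 40 tested genes of mitosis 36 fell and none rose, with a median change of -1.15, and the median signal of the list was 153 to 179 in the 4-week ICGN arrays and 65.0 to 73.5 in the 8-week arrays. Mki67, the gene of the proliferation marker Ki-67, had signals of 430, 500 and 457 at 4 weeks and 134, 115 and 131 at 8 weeks. Every 8-week array lay below every 4-week array, a fall of 1.78 ± 0.13 (3.44-fold, adjusted p = 3.22e-06). Cdk1, the kinase that drives entry into mitosis, stood at 406, 362 and 444 and then at 130, 131 and 129 (change -1.55 ± 0.15, adjusted p = 2.03e-05). Ccnb2, which encodes a cyclin partner of Cdk1, went from 287, 375 and 393 to 109, 93.2 and 114 (-1.63 ± 0.16, adjusted p = 2.2e-05). Cdc20, an activator of the anaphase-promoting complex, went from 382, 441 and 480 to 156, 136 and 126 (-1.56 ± 0.14, adjusted p = 1.98e-05). The centrosomal kinase Nek2 went from 282, 309 and 274 to 92.4, 104 and 105 (-1.42 ± 0.13, adjusted p = 1.98e-05). The ages did not overlap for any of these 5 genes.

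Genes of the mitotic phase are known to be silenced in resting cells by a complex that binds the cell cycle homology region, and to be activated through CCAAT boxes bound by NF-Y. The 250 bases before the start of the 4 mitosis genes with the smallest p that have a promoter entry are shown because these genes moved together. They are printed 5' to 3' in the direction of the gene from RefSeq (build GRCm38.p6), with each TTTGAA and each CCAAT, on either strand, in capitals.
Mki67 (chr7:135716380-135716629, minus strand): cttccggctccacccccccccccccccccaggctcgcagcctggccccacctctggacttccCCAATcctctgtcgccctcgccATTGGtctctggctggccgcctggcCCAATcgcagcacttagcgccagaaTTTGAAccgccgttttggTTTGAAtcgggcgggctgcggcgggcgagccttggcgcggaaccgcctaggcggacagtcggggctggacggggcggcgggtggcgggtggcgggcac
Cdc20 (chr4:118437344-118437593, minus strand): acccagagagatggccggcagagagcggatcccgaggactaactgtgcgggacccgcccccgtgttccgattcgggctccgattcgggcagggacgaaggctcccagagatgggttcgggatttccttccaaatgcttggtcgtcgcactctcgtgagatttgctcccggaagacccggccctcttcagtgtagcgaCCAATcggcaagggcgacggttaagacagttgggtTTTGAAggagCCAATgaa
Nek2 (chr1:191821223-191821472, plus strand): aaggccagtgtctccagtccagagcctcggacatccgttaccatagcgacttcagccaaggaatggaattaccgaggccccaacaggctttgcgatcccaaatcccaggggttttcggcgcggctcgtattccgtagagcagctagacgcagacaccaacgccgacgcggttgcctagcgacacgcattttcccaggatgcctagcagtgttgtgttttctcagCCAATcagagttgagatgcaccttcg
Cdk1 (chr10:69352913-69353162, minus strand): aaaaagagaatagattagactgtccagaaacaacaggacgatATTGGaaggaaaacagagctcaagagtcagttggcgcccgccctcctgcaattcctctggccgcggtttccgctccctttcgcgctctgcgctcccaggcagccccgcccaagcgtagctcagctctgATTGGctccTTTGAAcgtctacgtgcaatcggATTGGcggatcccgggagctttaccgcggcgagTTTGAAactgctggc
Mki67 held 2 TTTGAA and 3 CCAAT matches, Cdc20 held 1 and 2, Cdk1 held 2 and 3, and Nek2 held 1 CCAAT alone. Of 33 mitosis promoters on hand, 26 (78.8%) contained CCAAT, against 34.5% of all 27025 promoters of this length. TTTGAA was in 10 of the 33 (30.3%), against 16.3% of all, and both were in 9 (27.3%), against 5.73% of all. A match is a run of letters in this window and not a measured binding site.

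DNA replication genes followed: 21 of 33 fell and none rose, with a median change of -0.67. Mcm7, a subunit of the replicative helicase, had signals of 1188, 1331 and 1258 at 4 weeks and 724, 739 and 675 at 8 weeks (-0.81 ± 0.09, adjusted p = 4.6e-05). Rrm2, the small subunit of ribonucleotide reductase, went from 236, 291 and 348 to 118, 125 and 145 (-1.09 ± 0.14, adjusted p = 0.00022). Tk1, thymidine kinase of dividing cells, went from 290, 422 and 397 to 111, 107 and 145 (-1.52 ± 0.17, adjusted p = 8.8e-05). In each case the lowest 4-week array stood above the highest 8-week array. Mest, an imprinted gene of the fetal growth programme, fell as well, from 282, 262 and 246 to 120, 108 and 100 (-1.19 ± 0.12, adjusted p = 3.24e-05).

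The median fall was smaller in ICGN than in ICR. The mitosis list had a median change of -1.99 in ICR, where 39 of 40 genes fell, and 37 of the 40 had the more positive change in ICGN, against 44.7% of all tested genes. For Mki67 the change was -3.12 ± 0.13 in ICR, and the strains' changes differed by 1.33 ± 0.18 (adjusted p = 0.00143). At 8 weeks its mean signal was thus 60.3 in ICR against 115 to 134 in the ICGN arrays. Cdk1 fell by 2.59 in ICR (difference 1.04 ± 0.21, adjusted p = 0.00959) and Ccnb2 by 2.93 (difference 1.30 ± 0.22, adjusted p = 0.00429). Rrm2 changed by -2.51 in ICR (difference 1.42 ± 0.20, adjusted p = 0.00177). Nek2 did not show such a gap, with -1.38 in ICR and a difference of -0.05 ± 0.19 (adjusted p = 0.913). Its values are those of 1 probe set, and of the 2 tested for it 1 was called in ICGN.

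**Figure D2:**
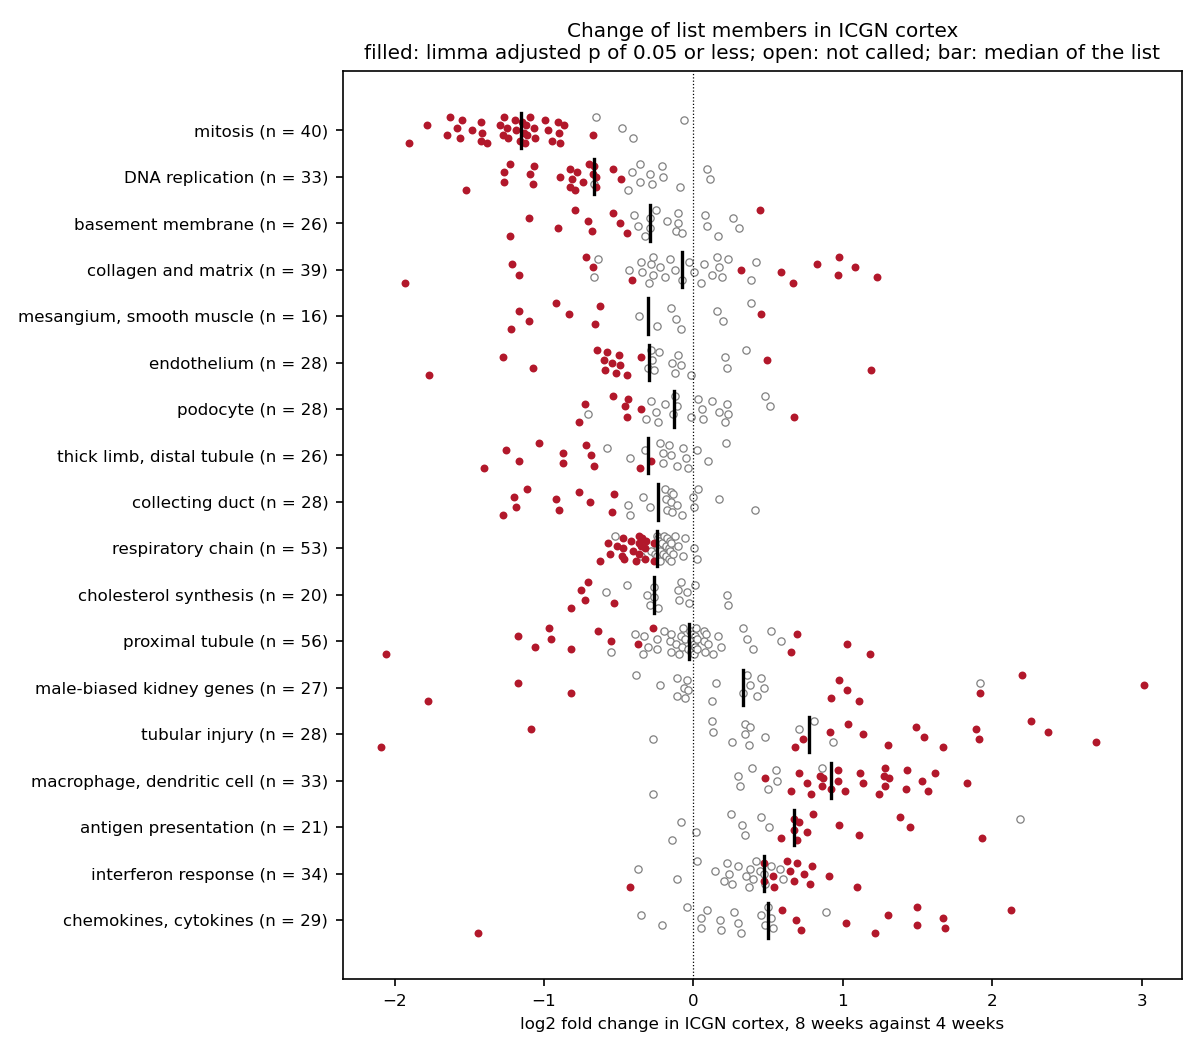
Log2 change from 4 to 8 weeks in ICGN cortex (horizontal axis) of every tested member of 18 gene lists (rows), with filled points for called genes, open points for the others and a bar at the list's median. The mitosis genes lie left of 0 (median -1.15), the macrophage and dendritic cell genes lie almost wholly right of it (median 0.92), and collagen and matrix genes fall on both sides (median -0.08).

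Extracellular matrix genes moved in both directions in ICGN. Of 39 collagen and matrix genes 8 rose and 6 fell, with a median of -0.08, which was 0.06 without 4-week replicate 1. Eln, the gene of elastin, had the largest fall of the list, from 515, 582 and 450 to 124, 131 and 125 (-1.93 ± 0.12, adjusted p = 1.97e-06). Acta2, the smooth muscle actin of vessel walls and myofibroblasts, went from 4004, 3640 and 3123 to 1731, 1648 and 1399 (-1.16 ± 0.11, adjusted p = 1.98e-05). Rising members included Dcn, the gene of the collagen-binding proteoglycan decorin, with 1012, 883 and 864 at 4 weeks and 2320, 2197 and 1985 at 8 weeks (1.23 ± 0.14, adjusted p = 8.99e-05). Tgfbi, a matrix protein induced by TGF-beta, went from 342, 289 and 279 to 608, 542 and 673 (0.98 ± 0.15, adjusted p = 0.00066). Ccn2, the connective tissue growth factor, went from 1575, 1578 and 2026 to 3224, 2541 and 4668 (0.97 ± 0.17, adjusted p = 0.00126). No 4-week array of these 5 genes lay within the range of the 8-week arrays.

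The normal strain turned the same list down. In ICR 26 of the 39 fell and 1 rose (median -0.78), and 38 of the 39 had the more positive change in ICGN, against 44.7% of all tested genes. For 22 of the 39 the difference was called, all more positive in ICGN, against 4.29% of all tested genes. Eln fell in ICR as well, by 2.80 ± 0.12, and its changes differed by 0.87 ± 0.17 (adjusted p = 0.00937). Dcn rose in both strains, in ICR by 0.72 ± 0.14.

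Of 26 basement membrane genes tested 9 fell and 1 rose (median -0.29), against 15 and 1 in ICR (median -0.66). Col4a2, a chain of the widely expressed type IV collagen, had signals of 3022, 2768 and 3006 at 4 weeks and 1945, 1787 and 1760 at 8 weeks (-0.68 ± 0.09, adjusted p = 0.000287). Col4a5, a chain of the collagen of the mature glomerular membrane, went from 1164, 1299 and 1129 to 650, 668 and 737 (-0.79 ± 0.11, adjusted p = 0.000339). Nid2, the gene of the linker protein nidogen 2, went from 369, 304 and 331 to 167, 185 and 167 (-0.90 ± 0.13, adjusted p = 0.000394). None of the 3 had overlapping ages.

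Of 28 podocyte genes 7 fell and 1 rose in ICGN (median -0.13), and 4 fell without 4-week replicate 2. In ICR 6 of them fell and 5 rose (median -0.08). Podxl, the sialomucin that coats foot processes and is also made by endothelium, was at 1375, 1271 and 1272 and then at 938, 1021 and 908 (-0.45 ± 0.09, adjusted p = 0.00327). Tcf21, a transcription factor of podocytes and stroma, fell from 1171, 999 and 938 to 514, 609 and 700 (-0.76 ± 0.11, adjusted p = 0.000527). The single riser was Cd2ap, an adaptor of the slit diaphragm, which went from 976, 1106 and 1092 to 1560, 1769 and 1750 (0.67 ± 0.13, adjusted p = 0.00271). All 3 genes separated the ages in ICGN. Tcf21 also fell in ICR, by 1.25 ± 0.11, and Cd2ap also rose there, by 0.38 ± 0.13. Podxl was not called in ICR (-0.08 ± 0.09). The difference between the strains was not called for any of the 3.

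Mesangial and smooth muscle genes fell in 7 of 16 cases and 1 rose (median -0.30), against 11 falls and 1 rise in ICR (median -0.70). Tagln, an actin-binding protein of smooth muscle, went from 1382, 1216 and 998 to 687, 611 and 572 (-0.92 ± 0.12, adjusted p = 0.000227). Myh11, the smooth muscle myosin heavy chain, went from 151, 194 and 155 to 85.8, 85.3 and 48.9 (-1.10 ± 0.19, adjusted p = 0.00116). Both had each 8-week array below each 4-week array.

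Endothelial genes fell in 13 of 28 cases and 2 rose (median -0.29), against 8 falls and 5 rises in ICR (median -0.08). Aplnr, the apelin receptor, was at 1386, 1614 and 1494 at 4 weeks and at 391, 559 and 365 at 8 weeks (-1.77 ± 0.17, adjusted p = 2.35e-05). Sox18, a transcription factor of vessel growth, went from 464, 447 and 398 to 164, 190 and 167 (-1.28 ± 0.16, adjusted p = 0.000131). Tie1, an endothelial receptor kinase, went from 172, 153 and 146 to 70.0, 69.3 and 67.4 (-1.07 ± 0.13, adjusted p = 0.000165). Esm1, a proteoglycan secreted by endothelium, rose from 128, 201 and 143 to 333, 442 and 334 (1.19 ± 0.19, adjusted p = 0.000869). Kdr, the main receptor for VEGF-A, stayed within 318, 346 and 333 and 320, 330 and 255 in ICGN, overlapping between the ages (-0.14 ± 0.11, adjusted p = 0.375). In ICR it rose by 0.95 ± 0.11, and the strains' changes differed by -1.09 ± 0.15 (adjusted p = 0.00177).

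Among 28 genes of tubular injury, 14 were higher at 8 weeks and 2 lower (median 0.77), and in ICR 5 rose and 6 fell (median -0.02). The difference between the strains was called for 11 members, 10 of them more positive in ICGN, against 4.29% of all genes called in that direction. Vcam1, an adhesion molecule for leukocytes that injured proximal tubules are known to display, had signals of 173, 241 and 403 at 4 weeks and 1364, 1648 and 2264 at 8 weeks. That is a rise of 2.69 ± 0.27 (6.46-fold, adjusted p = 3.01e-05), with 0.14 ± 0.27 in ICR and a difference of 2.55 ± 0.38 (adjusted p = 0.00215). Lcn2, which encodes the iron-carrier-binding protein NGAL, was at 114, 95.7 and 103 and then at 849, 381 and 615. It rose by 2.37 ± 0.34 (adjusted p = 0.000394), whereas in ICR it lay at or below the array median in all 6 arrays, so no change is read there. Neutrophils carry Lcn2 as well, and of the 2 neutrophil genes tested it was the one called. The other, Ngp, had ICGN means of 38.5 and 40.8 (0.11 ± 0.23, adjusted p = 0.781). It lay above the array median in 1 array of each age. The summed signal of the 2 genes was 121 to 157 at 4 weeks and 421 to 890 at 8 weeks. Most of this sum was Lcn2, so it is not a measure of neutrophils. The part of neutrophils was not tested. Cp, the copper-carrying ferroxidase ceruloplasmin, went from 726, 672 and 954 to 4060, 3224 and 4012 (2.26 ± 0.18, adjusted p = 6.09e-06). Its change in ICR was 0.28 ± 0.18 and the difference 1.97 ± 0.26 (adjusted p = 0.00141). Cd44, a hyaluronan receptor, went from 120, 112 and 158 to 566, 397 and 602 (1.91 ± 0.17, adjusted p = 1.69e-05), with a difference from ICR of 1.86 ± 0.24 (adjusted p = 0.00136). For Vcam1, Lcn2, Cp and Cd44 every 8-week ICGN array lay above every 4-week array. The highest of the 4-week arrays was replicate 3 for Vcam1, Cp and Cd44. Tnfrsf12a, the receptor of the cytokine TWEAK, rose in both strains, in ICGN from 427, 474 and 339 to 934, 792 and 1024 (1.13 ± 0.19, adjusted p = 0.00102) and in ICR by 1.39 ± 0.19.

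Of 33 macrophage and dendritic cell markers tested 25 rose and none fell (median 0.92), and the median signal of the list was 118 to 128 in the 4-week arrays and 234 to 267 in the 8-week arrays. Cybb, the membrane subunit of the phagocyte oxidase, had signals of 135, 124 and 141 at 4 weeks and 417, 383 and 451 at 8 weeks (1.57 ± 0.14, adjusted p = 1.83e-05). Mpeg1, the gene of the pore-forming perforin 2, went from 216, 255 and 272 to 818, 652 and 888 (1.62 ± 0.17, adjusted p = 5.57e-05). Ctss, a lysosomal protease that trims the invariant chain, went from 658, 665 and 789 to 2299, 1997 and 1865 (1.53 ± 0.19, adjusted p = 0.000156). Clec7a, the receptor for fungal glucans, went from 75.6, 97.4 and 124 to 258, 312 and 267 (1.42 ± 0.19, adjusted p = 0.000224). The endotoxin co-receptor Cd14 went from 457, 456 and 593 to 1026, 938 and 992 (0.97 ± 0.11, adjusted p = 0.000116). The ages were separated in all 5. The summed signal of the list ranged from 7007 to 8113 at 4 weeks and from 13800 to 16168 at 8 weeks, and the part of these cells in the other changes described here was not tested.

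In ICR 6 of the 33 rose and 1 fell (median 0.12), and 32 of the 33 had the more positive change in ICGN, against 44.7% of all tested genes. Clec7a changed by 0.14 ± 0.19 in ICR, a difference of 1.28 ± 0.26 (adjusted p = 0.0115). Cybb rose in ICR too, by 1.02 ± 0.14, and its difference of 0.54 ± 0.20 was not called (adjusted p = 0.109).

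Of 29 chemokines and cytokines 11 rose and 1 fell (median 0.50), 7 rising without 8-week replicate 3. Ccl2, the chemokine that draws monocytes, went from 78.2, 98.2 and 132 to 338, 212 and 568 (1.67 ± 0.33, adjusted p = 0.00295). Ccl9, a macrophage chemokine, went from 89.5, 54.5 and 76.0 to 242, 193 and 238 (1.49 ± 0.25, adjusted p = 0.000956). Cx3cl1, the membrane-bound chemokine fractalkine, went from 450, 442 and 456 to 765, 654 and 781 (0.69 ± 0.09, adjusted p = 0.000318). Their lowest 8-week signals exceeded their highest 4-week signals.

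Antigen presentation genes rose in 12 of 21 cases and none fell (median 0.67). H2-Aa, a class II chain, had signals of 442, 434 and 711 and then 2116, 1606 and 2321 (1.93 ± 0.29, adjusted p = 0.000565). Cd74, the invariant chain, went from 1629, 1529 and 3195 to 5316, 4574 and 5859 (1.38 ± 0.23, adjusted p = 0.000956). Among the 4-week arrays replicate 3 was the highest for both. Tapbp, the class I loading factor tapasin, went from 718, 718 and 937 to 1187, 1159 and 1541 (0.70 ± 0.13, adjusted p = 0.00222). H2-Aa and Cd74 also rose in ICR, by 1.52 ± 0.29 and 0.76 ± 0.23.

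Interferon-response genes rose in 13 of 34 cases and 1 fell (median 0.47), with 8 rising without 4-week replicate 1 and 6 without 8-week replicate 3. In ICR none rose and 8 fell (median -0.31), and 31 of the 34 had the more positive change in ICGN, against 44.7% of all tested genes. Gbp7, a guanylate-binding protein, went from 220, 267 and 229 to 376, 359 and 399 (0.64 ± 0.12, adjusted p = 0.00225), with -0.23 ± 0.12 in ICR and a difference of 0.87 ± 0.17 (adjusted p = 0.00933). Bst2, which tethers budding virus particles, went from 151, 142 and 135 to 212, 223 and 245 (0.63 ± 0.13, adjusted p = 0.00469), a difference from ICR of 0.98 ± 0.19 (adjusted p = 0.00822). The RNA sensor Ddx58 went from 270, 279 and 262 to 374, 385 and 434 (0.54 ± 0.10, adjusted p = 0.0016). Ifi27 went from 672, 479 and 680 to 1087, 1060 and 1914 (1.10 ± 0.20, adjusted p = 0.00179). Replicate 3 gave the highest 8-week signal for all 4. The interferon-stimulated response element GAAANNGAAA, searched on both strands of the 250 bases before the start, was present in 13 of 26 promoters of the list (50.0%), in 1 of 14 of the antigen presentation list (7.14%) and in 3.04% of all promoters.

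Ubd, a ubiquitin-like modifier induced by interferon-gamma and TNF, had signals of 28.7, 78.2 and 225 at 4 weeks and 658, 589 and 856 at 8 weeks (2.90 ± 0.44, adjusted p = 0.000585). Replicate 1 was the lowest and replicate 3 the highest of the 4-week arrays, and the change was 2.28 without 4-week replicate 1 and 3.56 without replicate 3. Bcl6, a transcriptional repressor, rose from 198, 178 and 120 to 735, 733 and 703 (2.09 ± 0.35, adjusted p = 0.00116) and fell in ICR by 0.98 ± 0.35 (difference 3.07 ± 0.50, adjusted p = 0.00338). Of 17 complement genes 5 rose and none fell (median 0.48), and 3 rose without 4-week replicate 1, 4-week replicate 2 or 8-week replicate 1. Cfi, the protease that inactivates C3b, went from 231, 204 and 194 to 452, 325 and 443 (0.91 ± 0.15, adjusted p = 0.000932) and fell in ICR by 0.83 ± 0.15 (difference 1.74 ± 0.21, adjusted p = 0.00123). Serping1, the inhibitor of C1, went from 1698, 1486 and 1367 to 2484, 2248 and 2480 (0.66 ± 0.14, adjusted p = 0.00495), a difference from ICR of 0.96 ± 0.20 (adjusted p = 0.013).

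Some immunoglobulin transcripts rose in both strains, while Ighm, the constant region of IgM, chosen after its values were seen, was not called in ICGN in any of its 4 probe sets. Igha, the constant region of IgA, had the largest rise of all tested genes in ICGN, with signals of 30.2, 18.1 and 80.3 at 4 weeks and 2230, 1161 and 1172 at 8 weeks (4.93 ± 0.65, adjusted p = 0.000237). In ICR its mean went from 49.6 to 6656 (7.07 ± 0.65, adjusted p = 5.15e-06). Jchain, which links IgA and IgM into polymers, went from 37.9, 28.0 and 34.4 to 494, 292 and 307 (3.04 ± 0.42, adjusted p = 0.000324) and by 5.25 ± 0.42 in ICR. The kappa variable gene Igkv8-30 went from 21.7, 6.09 and 27.6 to 263, 275 and 146 (3.05 ± 0.56, adjusted p = 0.00192) and by 5.23 ± 0.56 in ICR. The 4-week signals of Jchain and Igkv8-30 were at or below the array median in all 3 ICGN arrays and those of Igha in 2, so on this scale these changes are compressed. The summed signal of 9 lymphocyte and plasma cell genes ranged from 4266 to 4406 at 4 weeks and from 6068 to 6517 at 8 weeks, and 3 of them rose, Ptprc, Jchain and Xbp1. Most of this sum was Xbp1, with means of 3212 and 4544, which is also in the endoplasmic reticulum stress list. The sum is therefore not a measure of lymphoid cells. Clec2d, a ligand of an inhibitory receptor of natural killer cells, went from 52.1, 90.1 and 119 to 978, 793 and 1046 (3.33 ± 0.25, adjusted p = 4.09e-06) and by 2.91 ± 0.25 in ICR.

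**Figure D3:**
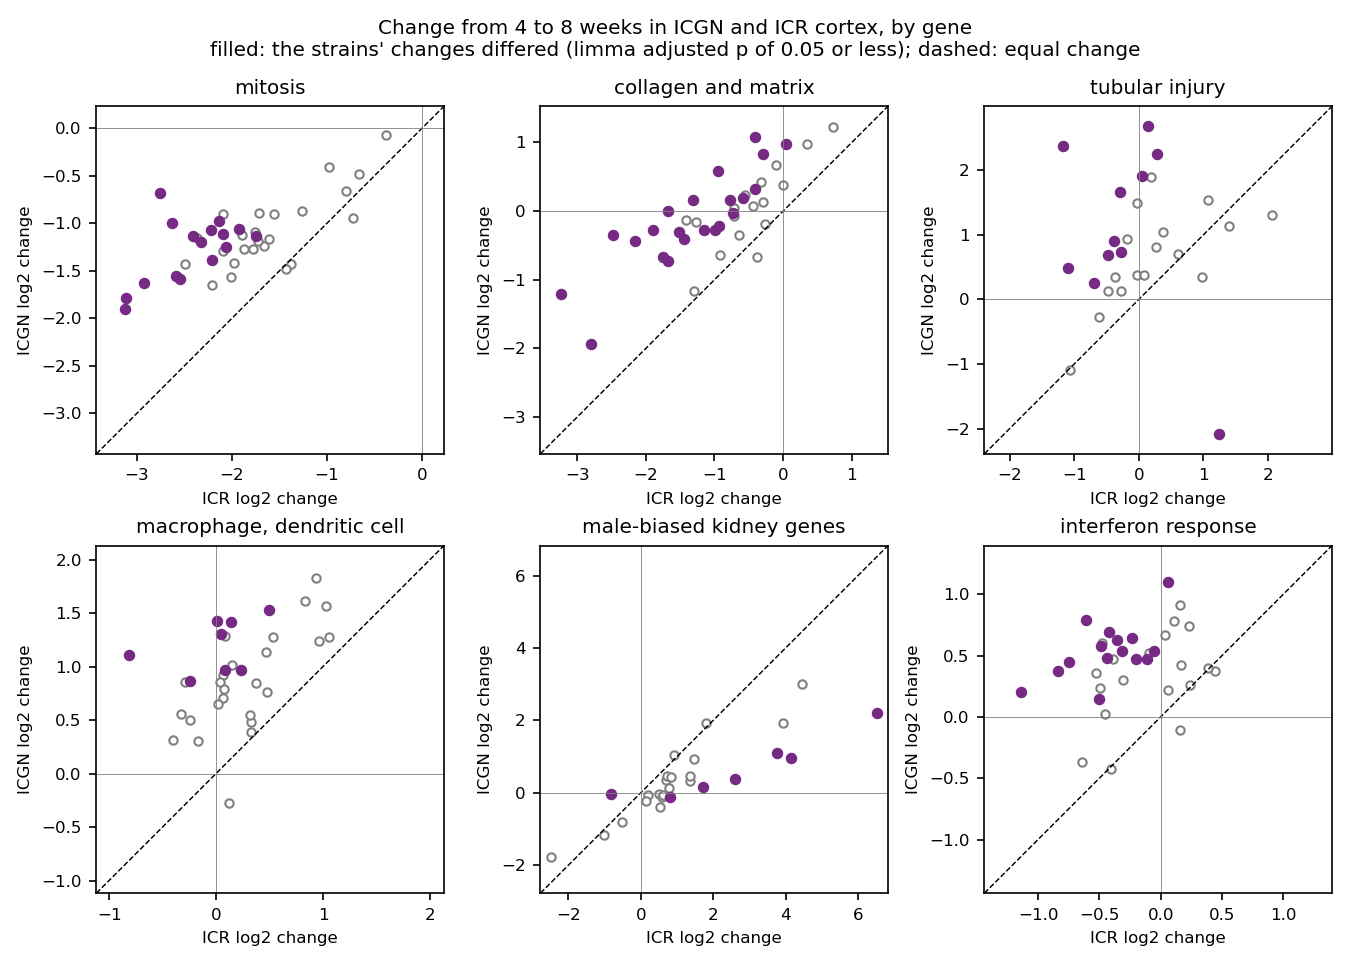
Log2 change from 4 to 8 weeks in ICR cortex (horizontal axis) against that in ICGN cortex (vertical axis) for the tested members of 6 gene lists, with filled points where the strains' changes differed at an adjusted p of 0.05 or less and a dashed line of equal change. The mitosis genes lie above the line in 37 of 40 cases and the collagen and matrix genes in 38 of 39, whereas the male-biased kidney genes lie below it in 23 of 27. Of all tested genes 44.7% had the more positive change in ICGN.

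The proximal tubule list shifted little as a whole: of 56 tested genes 4 rose and 10 fell (median -0.03, turning to 0.01 after quantile normalization and 0.09 without 4-week replicate 3), with 6 falls without 4-week replicate 2. In ICR 20 rose and 10 fell (median 0.21). Anpep, a peptidase of the brush border, had signals of 530, 505 and 497 at 4 weeks and 120, 107 and 117 at 8 weeks, a fall of 2.05 ± 0.11 (4.15-fold, adjusted p = 5.38e-07). Xpnpep2, another membrane peptidase, went from 194, 201 and 172 to 42.9, 44.0 and 49.1 (-1.83 ± 0.17, adjusted p = 1.89e-05). Both also fell in ICR, by 1.46 ± 0.11 and 1.48 ± 0.17. Among transporters, Slc6a13 of betaine and GABA went from 745, 729 and 636 to 429, 303 and 350 (-0.95 ± 0.15, adjusted p = 0.000797). The citrate transporter Slc13a2 went from 622, 769 and 729 to 289, 400 and 382 (-0.97 ± 0.16, adjusted p = 0.00119). The phosphate transporter Slc34a3 went from 1225, 1050 and 1432 to 566, 723 and 480 (-1.06 ± 0.18, adjusted p = 0.0013). None of the 3 overlapped between the ages. Cyp2e1, a cytochrome of ethanol and fatty acid oxidation, rose from 4339, 4277 and 7534 to 9232, 11707 and 11059 (1.03 ± 0.20, adjusted p = 0.00296).

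Genes known to be higher in male than in female mouse kidney had a smaller median rise in ICGN than in ICR. Of 27 tested 7 rose and 3 fell in ICGN (median 0.33), whereas 18 rose and 4 fell in ICR (median 0.80). Falling members in ICGN included Mep1b and Serpina1f. Serpina1f went from 1050, 1345 and 822 to 507, 299 and 174 (-1.78 ± 0.37, adjusted p = 0.00375) and fell in ICR by 2.47 ± 0.37. The ICGN count of 7 was 3 without 4-week replicate 1, 4-week replicate 2 or 8-week replicate 3 and 4 without 8-week replicate 2. Of the 27, 23 had the more negative change in ICGN, against 6853 of all 12385 tested genes. The difference was called as more negative in ICGN for 6 of the 27, against 5.07% of all tested genes. It was called in the other direction for Hacl1, a peroxisomal lyase chosen after its values were seen, a call lost without ICGN 4-week replicate 1, 2 or 3, ICR 4-week replicate 3 or ICGN 8-week replicate 1 or 3. Y-linked Eif2s3y, Uty and Kdm5d stood above the array median in all 6 ICGN arrays. Xist did so in 4 of them, at signals of 20.8 to 70.3 before centring. Of these 4 genes 2 rose and none fell in ICGN by the probe set used for each. Of the 3 probe sets tested for Uty, 2 were called higher and 1 lower. Cyp4a12a, an androgen-dependent fatty acid hydroxylase, had signals of 176, 121 and 260 and then 633, 1350 and 725 in ICGN (2.20 ± 0.46, adjusted p = 0.00404). In ICR its mean went from 63.7 to 5687 (6.53 ± 0.46), a difference of -4.33 ± 0.65 (adjusted p = 0.00215), which was -4.96 without ICR 4-week replicate 1. Cyp2d9, a steroid hydroxylase, was at 187, 247 and 320 and then at 555, 402 and 537 in ICGN (0.97 ± 0.28, adjusted p = 0.0247). That call was lost without 4-week replicate 1, 4-week replicate 2, 8-week replicate 1 or 8-week replicate 3 (0.79 to 0.98). The change in ICR was 4.15 ± 0.28 and the difference -3.18 ± 0.40 (adjusted p = 0.00136). Inmt, a methyltransferase of indole amines, was at 1713, 2634 and 4623 and then at 4879, 6280 and 6838 (1.11 ± 0.37, adjusted p = 0.0457), a call lost without any 1 ICGN array other than 4-week replicate 3. Its change in ICR was 3.76 ± 0.37 and the difference -2.66 ± 0.52 (adjusted p = 0.00959). Nat8f5, an N-acetyltransferase, overlapped between the ages in ICGN at 444, 521 and 551 and then 545, 511 and 1025 (0.38 ± 0.26, adjusted p = 0.313) and rose in ICR by 2.60 ± 0.26 (difference -2.22 ± 0.37, adjusted p = 0.00357). Cyp7b1, an oxysterol hydroxylase, rose in both strains, in ICGN from 70.6, 65.2 and 294 to 908, 2210 and 479 (3.01 ± 0.58, adjusted p = 0.0026, and 3.67 without 4-week replicate 3) and in ICR by 4.46 ± 0.58.

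Slc7a12, an amino acid transporter of the kidney, had the largest positive difference between the strains of all tested genes. Its signals were 1050, 1394 and 588 at 4 weeks and 772, 211 and 439 at 8 weeks in ICGN, overlapping between the ages, with a change of -1.17 ± 0.40 (adjusted p = 0.0498). That call was lost without 4-week replicate 1, 4-week replicate 2, 8-week replicate 2 or 8-week replicate 3 (-0.70 to -1.21). In ICR the mean fell from 2552 to 37.8 (-5.75 ± 0.40), and the difference was 4.58 ± 0.57 (adjusted p = 0.00123). Among genes known to be higher in female kidney, 5 of 13 fell and 2 rose (median -0.25), with 3 falls without 4-week replicate 1 or without 4-week replicate 2. The 2 risers were Slc16a14 and Ugt8a. The median signal of this list was 1050 and 1165 in 4-week arrays 1 and 2, 614 in 4-week array 3 and 434 to 534 in the 8-week arrays. Slc22a29, an organic anion transporter, fell from 637, 625 and 424 to 111, 108 and 97.2 (-2.28 ± 0.21, adjusted p = 2.03e-05). Slc22a7, another carrier of that family, fell from 858, 1053 and 912 to 156, 484 and 96.6 (-2.19 ± 0.44, adjusted p = 0.00319, and -2.82 without 8-week replicate 2).

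Replicate 3 of the 4-week group stood closer to the 8-week arrays than its companions for further genes. Serpina6, which encodes the corticosteroid carrier transcortin, had the largest fall of all tested genes in ICGN, with signals of 2155, 2232 and 144 at 4 weeks and 12.3, 3.16 and 14.3 at 8 weeks (-5.49 ± 0.81, adjusted p = 0.000501). The 8-week signals were all below the array median, and the change was -6.77 without 4-week replicate 3, -4.86 without 4-week replicate 1 and -4.84 without 4-week replicate 2. In ICR it fell by 6.78 ± 0.81. Hmox1, the heme-degrading enzyme, was at 1367, 1715 and 409 at 4 weeks and at 179, 231 and 271 at 8 weeks (-2.09 ± 0.40, adjusted p = 0.0026, and -2.72 without 4-week replicate 3). In ICR it rose by 1.24 ± 0.40, and the changes differed by -3.33 ± 0.57 (adjusted p = 0.00429), or -3.95 without 4-week replicate 3. Of 28 target genes of the antioxidant factor NRF2, 3 rose and 6 fell (median -0.20). Osgin1, one of them, fell from 426, 439 and 312 to 194, 205 and 165 (-1.01 ± 0.13, adjusted p = 0.000165), with 0.24 ± 0.13 in ICR and a difference of -1.24 ± 0.18 (adjusted p = 0.00177).

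Of 61 cytochrome P450 and conjugation genes 9 rose and 9 fell (median 0.09, with -0.01 for the mean of probe sets and -0.03 without 8-week replicate 3), 14 rising without 4-week replicate 3. In ICR 26 rose and 7 fell. Cyp1b1, an oestrogen hydroxylase, rose from 424, 459 and 415 to 1144, 1102 and 1150 (1.37 ± 0.10, adjusted p = 3.22e-06) and in ICR by 0.59 ± 0.10 (difference 0.77 ± 0.14, adjusted p = 0.00593). Ugt8a, a galactosyltransferase of sphingolipids, rose from 1510, 1440 and 1632 to 3017, 2961 and 4030 (1.11 ± 0.14, adjusted p = 0.000165). Both genes separated the ages. Alas2, the erythroid enzyme of heme synthesis, fell from 368, 364 and 191 to 84.4, 70.4 and 64.2 (-1.87 ± 0.20, adjusted p = 5.9e-05), 1 of 2 falling members of 8 erythroid genes, whose summed signal ranged from 3145 to 3374 at 4 weeks and from 2569 to 2816 at 8 weeks.

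Genes of energy metabolism were followed in 3 lists. Of 53 respiratory chain genes 21 fell and none rose (median -0.24), against 13 falls and 3 rises in ICR (median -0.03). The ICGN count was 38 with arrays at a common trimmed mean and 33 of 52 with the stricter filter. Atp5g1, a subunit of the proton channel of ATP synthase, went from 4883, 5071 and 5162 to 3147, 3520 and 3620 (-0.56 ± 0.08, adjusted p = 0.000603). Sdhc, an anchor of succinate dehydrogenase, went from 4370, 4656 and 4626 to 2978, 3238 and 3356 (-0.51 ± 0.08, adjusted p = 0.000826). Citric acid cycle genes fell in 5 of 18 cases and none rose (median -0.16), whereas 5 rose and none fell in ICR (median 0.14). Of 30 glycolytic and gluconeogenic genes 6 fell and 3 rose (median -0.14), with 1 rise without 4-week replicate 1 or 2 or without 8-week replicate 1 or 3. One riser was Pdk4, which restrains pyruvate dehydrogenase, at 1.06 ± 0.27 (adjusted p = 0.0122). Pfkl, the liver-type phosphofructokinase, fell from 839, 796 and 731 to 375, 310 and 384 (-1.13 ± 0.10, adjusted p = 1.71e-05). Pkm, pyruvate kinase, went from 1150, 1156 and 1039 to 582, 626 and 652 (-0.84 ± 0.09, adjusted p = 4.6e-05). The 4-week signals of these 4 genes were all above the 8-week signals.

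Cholesterol synthesis genes fell in 5 of 20 cases and none rose (median -0.26). The sterol regulatory element TCACNCCAC, searched in the same way, was in 1 of 16 promoters of this list (6.25%) and in 1.04% of all. Fdps, farnesyl diphosphate synthase, went from 420, 410 and 302 to 212, 197 and 213 (-0.82 ± 0.13, adjusted p = 0.000786). Of 44 fatty acid genes 5 rose and 7 fell, against 11.1% and 11.6% of all tested genes. The rises numbered 2 without 4-week replicate 1, 8-week replicate 2 or 8-week replicate 3. The falls numbered 3 without 4-week replicate 2 and 4 without 4-week replicate 1 or 3 or 8-week replicate 1 or 3. The peroxisomal reductase Decr2 rose from 235, 245 and 327 to 643, 635 and 663 (1.25 ± 0.12, adjusted p = 2.03e-05). Acox3, a peroxisomal oxidase of branched chains, fell from 248, 272 and 322 to 151, 179 and 221 (-0.59 ± 0.14, adjusted p = 0.00958) and rose in ICR by 0.86 ± 0.14, a difference of -1.45 ± 0.20 (adjusted p = 0.00156).

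In the thick ascending limb and distal tubule 11 of 26 genes fell and none rose (median -0.30), with 7 falls without 4-week replicate 2; in ICR 11 fell and 1 rose. Egf, the growth factor made there in large amounts, had signals of 6477, 6750 and 6009 at 4 weeks and 2539, 4609 and 2617 at 8 weeks (-1.03 ± 0.18, adjusted p = 0.00121). In ICR the change was 0.23 ± 0.18, and the difference was -1.26 ± 0.25 (adjusted p = 0.00943). Pvalb, a calcium buffer of the early distal convoluted tubule, went from 486, 364 and 307 to 133, 171 and 154 (-1.26 ± 0.17, adjusted p = 0.000275). Ppp1r1a, an inhibitor of protein phosphatase, went from 688, 618 and 501 to 293, 228 and 157 (-1.40 ± 0.18, adjusted p = 0.000237). In the collecting duct 10 of 28 genes fell and none rose (median -0.24), against 11 falls and 1 rise in ICR. The ammonia channel Rhcg went from 710, 606 and 608 to 263, 298 and 266 (-1.19 ± 0.13, adjusted p = 7.7e-05). Scnn1a, a subunit of the epithelial sodium channel, went from 727, 722 and 610 to 352, 310 and 274 (-1.11 ± 0.13, adjusted p = 9.82e-05). Aqp2, the vasopressin-regulated water channel, went from 1629, 1487 and 957 to 501, 697 and 533 (-1.20 ± 0.28, adjusted p = 0.00871). Each of these 6 genes had its ages apart, with 8-week replicate 2 the highest of its group for Egf, Pvalb, Rhcg and Aqp2.

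Of 21 vitamin D and phosphate genes 5 fell and none rose in ICGN (median -0.17), whereas 6 rose and 4 fell in ICR (median 0.05). The ICGN falls numbered 3 without 4-week replicate 2 or 3 or 8-week replicate 1 or 3, and 8 without 8-week replicate 2. S100g, calbindin of the smaller type, went from 9443, 9054 and 6650 to 2395, 3122 and 3701 in ICGN (-1.45 ± 0.23, adjusted p = 0.000837) and changed by -1.55 ± 0.23 in ICR (difference 0.10 ± 0.33, adjusted p = 0.881). Calb1, the larger calbindin, went from 8599, 8420 and 4647 to 2506, 3605 and 3288 (-1.16 ± 0.20, adjusted p = 0.00128) and changed by -1.20 ± 0.20 in ICR (difference 0.04 ± 0.28, adjusted p = 0.952). Ace, the angiotensin-converting enzyme, fell from 482, 535 and 557 to 213, 255 and 220 (-1.16 ± 0.18, adjusted p = 0.000668). It changed by -0.31 ± 0.18 in ICR, and the difference of -0.85 ± 0.25 was not called (adjusted p = 0.0508).

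Immediate-early genes, which also respond within minutes to the handling of tissue, rose in 8 of 21 cases and none fell (median 0.48). The count was 3 without 4-week replicate 1, 8-week replicate 1 or 8-week replicate 3 and 4 without 4-week replicate 2 or 3. Klf6 went from 217, 211 and 266 to 687, 426 and 705 (1.32 ± 0.17, adjusted p = 0.000208), a difference from ICR of 1.33 ± 0.24 (adjusted p = 0.00593). Fos went from 71.8, 110 and 75.9 to 260, 188 and 376 (1.53 ± 0.32, adjusted p = 0.00413), a difference from ICR of 2.14 ± 0.45 (adjusted p = 0.0126), where all 8-week signals were at or below the array median. Egr1 went from 223, 470 and 343 to 1086, 610 and 1033 (1.39 ± 0.25, adjusted p = 0.00164). 8-week replicate 2 was the lowest of its group for all 3, and all 3 separated the ages. The part of tissue handling was not tested. Clock-controlled genes rose in 5 of 18 cases and none fell, and 8 rose in ICR. Dbp, an output gene of the circadian clock, went from 922, 1215 and 949 to 2347, 2611 and 2570 (1.29 ± 0.20, adjusted p = 0.000611) and changed by 1.43 ± 0.20 in ICR. The labels used here give no hour of collection, so hour and age cannot be told apart for these genes.

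Among stress genes, 9 of 34 genes of the endoplasmic reticulum stress response rose and 4 fell (median 0.16), with 5 rises when arrays were at a common median without centring and 2 falls without 8-week replicate 3. Pdia4, a disulfide isomerase, rose from 143, 126 and 148 to 372, 386 and 328 (1.31 ± 0.10, adjusted p = 4.04e-06) and in ICR by 0.99 ± 0.10. Of 34 apoptosis and p53 genes 7 rose and 4 fell, and 3 rose without 4-week replicate 1 or without 8-week replicate 3. The falls numbered 1 without 4-week replicate 1, 4-week replicate 2 or 8-week replicate 2, and 2 without 8-week replicate 3. The death receptor Fas rose from 41.5, 56.6 and 52.1 to 128, 123 and 201 (1.38 ± 0.26, adjusted p = 0.00218). Socs2, an inhibitor of growth hormone signalling, rose from 107, 84.2 and 195 to 376, 272 and 263 (1.23 ± 0.22, adjusted p = 0.00165).

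Genes that moved in opposite directions in the strains included Ptgds and Ptn. Ptgds, prostaglandin D synthase, rose in ICGN from 138, 163 and 223 to 514, 324 and 537 (1.33 ± 0.22, adjusted p = 0.000887) and fell in ICR by 1.31 ± 0.22 (difference 2.64 ± 0.31, adjusted p = 0.00103). Ptn, the growth factor pleiotrophin, rose in ICGN from 129, 118 and 135 to 248, 224 and 323 (0.98 ± 0.18, adjusted p = 0.00225) and fell in ICR by 1.35 ± 0.18 (difference 2.33 ± 0.26, adjusted p = 0.000894). Both had non-overlapping ages in ICGN.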

How the data were processed

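The authors deposited MAS5 signals, a linear intensity per probe set, for 12 Affymetrix Mouse Genome 430 2.0 arrays (the submitters' processing notes name MAS5, with a version not given in the sources consulted). Cortical slices were kept in RNAlater and biotin-labelled cRNA was hybridised, per the labels' protocols. From these intensities, every array was brought to one median of 40.4 across its 45101 probe sets, an offset of 11 (the 25th percentile) was added and log2 was taken. Probe sets with 1 symbol that exceeded their array's median in at least 3 of 12 arrays were kept (21826). Each of 12385 genes was represented by its brightest probe set on average, and arrays were centred on the median of these genes. A normalised signal is that value back on the linear scale minus the offset. For 115 genes, probe sets were called in both directions. Named genes with only 1 of 2 tested probe sets called in ICGN included Nek2, Aplnr, Tcf21, Sdhc, Ifi27, Cx3cl1 and Mal. Of 45101 probe sets, 34958 had 1 symbol, 932 several and 9211 none, and 34754 gene IDs matched RefSeq GRCm38.p6.

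Groups were fitted in limma 3.58.1 (R 4.3.3) as 4 means with a mean-variance trend and 8 residual degrees of freedom, with Benjamini-Hochberg adjustment over all genes. The procedure was tested on simulated data. With 3 arrays per group, their number limits the precision, and MAS5 signals carry no read depth.

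The genes named are Tns2, called genes with the largest changes or strain differences, up to 5 members of each list with the smallest p, and tissue checks. For the largest changes the ages did not overlap in ICGN. For the largest strain differences, genes whose ages overlapped in both strains were left out. In either case the highest of the group means compared exceeded 4 times the common median. The members and the 48 lists (1329 of 1473 entries with a named probe set) were chosen with earlier results of these data known. Replicate numbers did not pair the arrays. Alternatives changed the offset, scaling, filter, probe set rule, variance trend, replicate block and arrays included.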

Additional observations from a re-analysis of the deposited data

Results flagged for a closer look

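The change from 4 to 8 weeks differed between the strains in limma's test of the interaction for 50 of the genes named, and each value here is the ICGN change minus the ICR change on the log2 scale. The more positive change in ICGN was 4.58 for Slc7a12, 3.07 for Bcl6, 2.64 for Ptgds, 2.55 for Vcam1, 2.33 for Ptn and 2.14 for Fos. Injury, complement and growth hormone signalling genes differed by 1.97 for Cp, 1.86 for Cd44, 1.74 for Cfi, 1.61 for Socs2 and 0.96 for Serping1. Cell division genes differed by 1.42 for Rrm2, 1.33 for Mki67, 1.30 for Ccnb2, 1.04 for Cdk1 and 0.58 for Mcm7, all of which fell in both strains. Early response genes differed by 1.35 for Egr1 and 1.33 for Klf6. Immune genes differed by 1.49 for Ccl9, 1.28 for Clec7a, 1.04 for Ifi27, 1.03 for Ctss, 0.98 for Bst2, 0.87 for Gbp7, 0.74 for Cd14 and 0.59 for Ddx58. Matrix and contractile genes differed by 0.93 for Tgfbi, 0.87 for Eln, 0.72 for Tagln and 0.49 for Col4a2. Mal and Hacl1 differed by 0.79 each and Cyp1b1 by 0.77. Fitted differences of 3.54 for Lcn2, 2.65 for Ubd and 1.96 for Ccl2 rest on ICR signals at or below the array median in all 6 arrays, so their size is not measured.

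The more negative change in ICGN was -4.33 for Cyp4a12a, -3.33 for Hmox1, -3.18 for Cyp2d9, -2.66 for Inmt, -2.58 for Slc22a7, -2.22 for Nat8f5 and -2.20 for Jchain. Acox3 differed by -1.45, Egf by -1.26, Osgin1 by -1.24, Kdr by -1.09, Pvalb by -0.83, Scnn1a by -0.73 and Anpep by -0.59.

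Leaving out 1 array ended the call of 16 of these genes. Ubd, Ccl2, Ccl9, Ddx58 and Tgfbi lost it without ICGN 8-week replicate 3 (2.50, 1.61, 1.45, 0.53 and 0.86), and Tagln without ICGN 8-week replicate 1 (0.65). Slc22a7 lost it without ICGN 4-week replicate 2, ICR 4-week replicate 3 or ICGN 8-week replicate 1 or 3 (-2.11 to -2.50). Scnn1a lost it without ICGN 4-week replicate 1 or 2, ICR 4-week replicate 1, ICGN 8-week replicate 3 or ICR 8-week replicate 2 (-0.63 to -0.69). Hacl1 lost it without any 4-week ICGN array, ICR 4-week replicate 3 or ICGN 8-week replicate 1 or 3 (0.64 to 0.82). Ifi27 lost it without ICGN 4-week replicate 2, any 4-week ICR array or 8-week replicate 3 of either strain (0.76 to 1.10). Ctss lost it without 4-week replicate 1 or 2 of either strain, ICGN 8-week replicate 1 or 3 or ICR 8-week replicate 2 (0.86 to 1.10). Egr1 kept it only without ICGN 4-week replicate 2, ICR 4-week replicate 3, ICGN 8-week replicate 2 or ICR 8-week replicate 1, and was otherwise at 1.08 to 1.39. Pvalb kept it only without 4-week replicate 3 of either strain, ICGN 8-week replicate 2 or ICR 8-week replicate 1, and was otherwise at -0.65 to -0.86. Col4a2 kept it only without ICR 4-week replicate 1, ICGN 8-week replicate 2 or ICR 8-week replicate 1 or 2, and was otherwise at 0.43 to 0.51. Jchain kept it only without ICR 4-week replicate 2 or 8-week replicate 1 of either strain, and was otherwise at -1.71 to -2.29. Anpep kept it only without replicate 1 of either ICR age, and was otherwise at -0.52 to -0.62.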

How the results depend on the processing

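Replicate numbers did not pair the ICGN arrays: deviations of same-numbered arrays correlated at 0.011, 0.045 and -0.024. With a replicate block the calls were 1297 higher and 1354 lower in ICGN, 2277 and 1729 in ICR, and 487 and 560 for the difference. With the 6 ICGN arrays alone the calls were 1588 higher and 1569 lower. Without centring, 787 genes were higher in ICGN and 274 for the difference. The stricter filter at the 75th percentile gave 1462 higher in ICR, with fewer genes tested. For the difference, no filter gave 303 higher, quantile normalization 412 lower and no mean-variance trend 410 lower, and the cause was not tested. Leaving out 1 array at a time gave 891 to 1221 higher and 937 to 1203 lower in ICGN, 1731 to 2183 higher and 1458 to 1668 lower in ICR, and 277 to 604 higher and 323 to 737 lower for the difference. The same range for the 18S control was -70.3 to 129, turning without 8-week replicate 2. The uncalled change of Tns2 turned to 0.088 without 4-week replicate 1, 0.038 without 8-week replicate 2 and 0.23 without 8-week replicate 3, within a range of -0.43 to 0.23 over the arrays left out. Of genes called in ICGN, those still called kept their direction under every alternative except 5 with the mean of probe sets. Among the values of single genes, 2762 stayed on their side of the threshold and 140 lost their call: 33 in ICGN, all of Cyp21a1, Cyp2d9, Inmt or Slc7a12, and 107 for the difference, of 19 genes. With the stricter filter 18 of 19 mitosis genes fell, and 16 of 19 macrophage and 6 of 9 chemokine genes rose. In dim genes the offset limits the size of change that can be measured.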

Other observations

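The counts below stand beside 11.1% of all tested genes higher and 11.6% lower in ICGN, and 18.7% and 14.4% in ICR. Of 23 coagulation genes 4 rose and none fell (median 0.37), 2 rising without 4-week replicate 2 or without 8-week replicate 3. Of 18 genes of the insulin-like growth factor system 2 rose and none fell (median 0.14), whereas 9 rose and 2 fell in ICR. Of 24 hypoxia genes 1 rose and 2 fell (median 0.03), and 8 rose and 1 fell in ICR. Of 23 heat shock genes 4 rose and 4 fell (median 0.08), 1 rising without 4-week replicate 3 or without 8-week replicate 3. Of 35 ion and drug transporters 6 rose and 5 fell (median -0.12), against 16 and 7 in ICR (median 0.39), with 3 falls in ICGN without 8-week replicate 3. Of 26 amino acid transporters 1 rose and 6 fell (median -0.19), 3 falling without 4-week replicate 1, 4-week replicate 2 or 8-week replicate 3. Of 27 kidney transcription factors 6 rose and 1 fell (median 0.02), 3 rising without 4-week replicate 1 or without 8-week replicate 2.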
